A study of Rattus norvegicus with 9 samples.

Results

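Lpl, the gene of lipoprotein lipase, and 9 other genes of fatty acid uptake were examined in rat femora: Gpihbp1, Lmf1, Cd36, Fabp3, Fabp4, Fabp5, Slc27a1, Slc27a4 and Acsl1. The 10 genes were chosen by name from the functions of their products, with earlier results of these data known. They were matched by symbol in a table of 32623 gene rows. Of the 10, 9 had a row under their symbol, and these 9 passed the filter for testing, a mean of at least 1 FPKM (fragment counts scaled for gene length and library depth) over the libraries. Cd36, the gene of the fatty acid translocase, had no row under its symbol and is not analysed here. A row named RGD1565355, which the table describes as similar to that translocase, was not taken as Cd36, since the symbol does not match. It had 211, 318 and 199.5 CPM (counts scaled to library size with TMM factors) in controls, 194, 205 and 215 in ovariectomized and 190.2, 197 and 227 CPM in treated libraries, with overlapping groups and higher mean levels in controls (243 ± 65.5) than in ovariectomized (204.5 ± 10.6) and treated ones (205 ± 19.6; SD, n = 3 each).

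Poly(A) RNA from the femur of Sprague-Dawley rats labelled wild type was sequenced in 3 groups of 3 libraries. Control libraries came from rats with no named intervention, and ovariectomized libraries from rats without ovaries, in which oestrogen is withdrawn. Treated libraries came from rats given the herb Desertliving Cistanche, which the series title places in ovariectomized rats, with no dose, duration, age or number of animals in the labels. The design thus asks how ovary removal changes the femur, and how femora of rats given the herb differ from both other groups.

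Fatty acids reach cells from the blood mostly in triglyceride-rich lipoproteins or bound to albumin. Lipoprotein lipase, made chiefly by fat and muscle cells, matures with the help of a chaperone, is carried to the capillary surface by an anchor protein of endothelium and there cuts triglycerides into fatty acids. Membrane transporters then move the fatty acids inside, binding proteins carry them through the cytosol, and acyl-CoA synthetases trap and activate them. In the femur, such genes are best known from marrow fat cells.

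Total counts per library ran from 54992823 to 66531156. Markers of fat cells and skeletal muscle were detected in every library, at unequal levels. The summed level of 10 adipocyte markers, all of them detected, was 279 to 530 FPKM in controls, 537 to 871 in ovariectomized and 605 to 927 FPKM in treated libraries, and was lowest in control replicate 3. The summed level of the 12 measured of 14 skeletal muscle markers was 274 to 883, 894 to 4280 and 670 to 1370 FPKM in the same order, and was highest in ovariectomized replicate 3. The 9 measured endothelial markers summed to 99.1 to 105, 96.3 to 116 and 96.8 to 123 FPKM, with overlapping groups. Macrophage markers ran from 404 to 739 FPKM over the 9 libraries, with Marco listed at 0 in each. Bone matrix markers ran from 1040 to 3180 FPKM, with Bglap and Ibsp, the defining markers of bone, detected in every library, and cartilage markers from 51.3 to 319, erythroid from 2010 to 3680, megakaryocyte and platelet from 870 to 1330 and neutrophil markers from 20600 to 42300 FPKM. Some of these lists had unequal estimates by group in edgeR as well, with 0 of their genes at an edgeR adjusted p under 0.05. By its own adjusted p, DESeq2 passed 2 skeletal muscle markers and 1 adipocyte marker for ovariectomized against control (all genes, 0.425%). For treated against control it passed 1 adipocyte and 1 erythroid marker (all genes, 1.10%). In edgeR, 6 of 7 tested cartilage markers were lower for ovariectomized against control at an unadjusted p under 0.05, at a median of -1.85 on the log2 scale. Of all 13886 genes tested, 701 had such a p in either direction, 462 of them higher. All 8 bone matrix markers had lower estimates, with a median of -0.383, where 48.7% of all genes were above 0. Treated libraries had lower estimates than controls for all 7 cartilage and all 8 bone matrix markers, with 2 of each at an unadjusted p under 0.05. All 7 tested erythroid markers had lower estimates in treated than in control libraries as well, with a median of -0.478. At an unadjusted p under 0.05 stood 6 of them. Of all tested genes, 1223 had such a p in either direction, 563 of them higher, and 50.0% were above 0 in this comparison. The part of these cell types in the results below was not tested. In whole femur, more cells of a type and more RNA per cell cannot be told apart.

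Lpl had the smallest p-value of the 9 genes in both comparisons with controls. It lies on chromosome 16 from 22537056 to 22561496 on the minus strand (genome build not given in the sources used here, as for all gene coordinates below). The control libraries had 128, 136 and 65.5 CPM, the ovariectomized libraries 299.9, 400.5 and 254, and the treated libraries 365, 211 and 416.5 CPM, for replicates 1, 2 and 3 in that order. Every ovariectomized and every treated library lay above every control library, while the ovariectomized and treated libraries overlapped over most of their range. Group means were 110 ± 38.7 in controls, 318 ± 74.9 in ovariectomized and 331 ± 107 CPM in treated libraries (SD, n = 3 each).

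For ovariectomized against control, the log2 fold change of Lpl was 1.53 ± 0.34 (SE), a 2.90-fold difference with a 95% interval of 1.69 to 4.97. For treated against control it was 1.59 ± 0.34, or 3.01-fold, with an interval of 1.75 to 5.17. edgeR's quasi-likelihood test gave unadjusted p-values of 0.00176 and 0.00142. After Benjamini-Hochberg adjustment over the 13886 genes tested, edgeR gave an adjusted p = 0.892 and an adjusted p = 0.431. DESeq2, the alternative count test, gave an adjusted p = 0.0019 and an adjusted p = 0.000473 for almost the same fold changes. The 2 count tests thus differed on whether Lpl passed the threshold of 0.05 and not on its estimate. limma on log2(FPKM + 1) gave an adjusted p = 0.638 and an adjusted p = 0.258, so it did not pass Lpl. Treated against ovariectomized, Lpl differed by a log2 fold change of 0.06 ± 0.33, with an interval of -0.70 to 0.82 that holds both a lower and a higher level.

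The edgeR test passed 0 of the 13886 genes in each of the 3 comparisons (0%), and so 0 of the 9 fatty acid uptake genes. At an unadjusted p under 0.05 it had 701 genes for ovariectomized against control, 722 for treated against ovariectomized and 1223 for treated against control. DESeq2 passed 59, 35 and 153 genes, 0.425%, 0.252% and 1.10% of those tested, and among the 9 only Lpl, in both comparisons with controls. The 3 comparisons share groups, so they are not independent of each other.

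Gpihbp1 encodes the endothelial protein that carries lipoprotein lipase across the capillary wall and holds it there (chromosome 7, 116632506 to 116634293, plus strand). Its level was 23.6, 15.8 and 16.2 CPM in controls, 28.3, 24.9 and 17.8 in ovariectomized and 18.8, 16.1 and 31.4 CPM in treated libraries. The 3 groups overlapped, and the highest single value came from treated replicate 3, which also had the most Lpl. The log2 fold change was 0.35 ± 0.29 for ovariectomized against control (edgeR adjusted p = 1.0) and 0.26 ± 0.29 for treated against control (edgeR adjusted p = 0.829). Set against Cdh5, which encodes the junction protein of endothelium, Gpihbp1 stood at 0.729, 0.563 and 0.517 per Cdh5 in controls, 0.753, 0.853 and 0.487 in ovariectomized and 0.709, 0.625 and 0.884 in treated libraries. These ratios overlapped as well.

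Lmf1 encodes the endoplasmic reticulum chaperone that lets lipases fold into their active form (chromosome 10, 14945265 to 15031942, plus strand). Controls had 16.5, 11.8 and 15.0 CPM, ovariectomized libraries 20.3, 17.9 and 15.1, and treated libraries 19.1, 16.2 and 15.1 CPM. The groups overlapped, with log2 fold changes of 0.30 ± 0.16 for ovariectomized against control and 0.21 ± 0.16 for treated against control, at an edgeR adjusted p = 0.999 and an adjusted p = 0.747. The lipase gene thus stood about 3-fold higher in both other groups, while the point estimates of its anchor and its chaperone were 1.16 to 1.28-fold; whether these fold changes differ from that of Lpl was not tested.

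**Figure D1:**
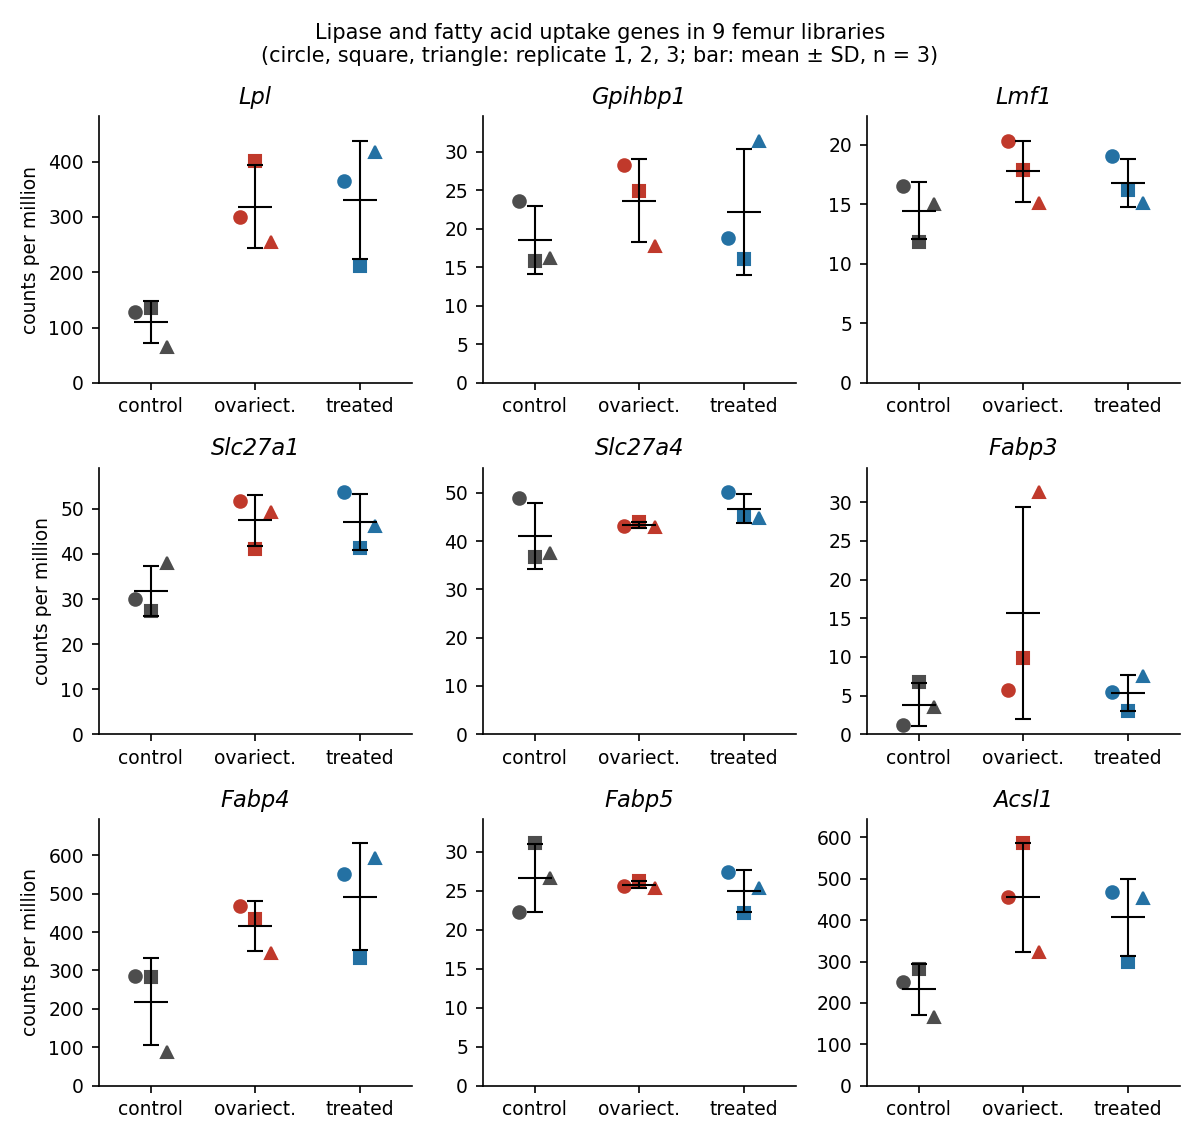
Level of each of the 9 genes in every library, in CPM on axes that start at 0, by group; circles, squares and triangles are replicates 1, 2 and 3, and bars give the mean ± SD (n = 3). In the Lpl, Slc27a1, Fabp4 and Acsl1 panels each ovariectomized and treated library lies above each control library, and in the Fabp3 panel ovariectomized replicate 3 stands at 31.3 CPM.

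The 2 measured transporters, Slc27a1 and Slc27a4, encode fatty acid transport proteins that couple uptake to activation. Slc27a1, the form of fat and muscle (chromosome 16, 19999112 to 20016190, plus strand), had 30.0, 27.3 and 37.9 CPM in controls, 51.8, 41.2 and 49.4 in ovariectomized and 53.8, 41.3 and 46.1 CPM in treated libraries. No control library reached the lowest ovariectomized or treated one, though the highest control, at 37.9 CPM, was near these, at 41.2 and 41.3 CPM. The SDs within groups were 5.54, 5.58 and 6.27 CPM. Its log2 fold change was 0.58 ± 0.15 (1.50-fold) for ovariectomized against control and 0.57 ± 0.15 (1.48-fold) for treated against control. The unadjusted p-values of edgeR were 0.00477 and 0.00532, and after adjustment edgeR gave an adjusted p = 0.892 and an adjusted p = 0.473; DESeq2 gave an adjusted p = 0.0864 and an adjusted p = 0.0583. Treated and ovariectomized libraries differed in Slc27a1 by -0.01 ± 0.15 on the log2 scale.

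Slc27a4, a more widely expressed form (chromosome 3, 8363937 to 8376858, plus strand), had 49.0, 36.8 and 37.5 CPM in controls, 43.0, 44.0 and 42.8 in ovariectomized and 50.2, 45.3 and 44.7 CPM in treated libraries. Its ovariectomized libraries lay inside the control range, and its 3 treated libraries lay just above the 3 ovariectomized ones. The log2 fold changes were 0.08 ± 0.11 for ovariectomized against control, 0.19 ± 0.11 for treated against control and 0.11 ± 0.11 for treated against ovariectomized. In edgeR none of these had an unadjusted p under 0.05, the smallest being 0.139. The values against control depended on single control libraries. Without control replicate 1 they were 0.22 ± 0.07 for ovariectomized and 0.33 ± 0.07 for treated libraries. edgeR then gave unadjusted p-values of 0.0209 and 0.0025, with an adjusted p = 0.685 and an adjusted p = 0.217. Without control replicate 2 they were -0.009 ± 0.12 and 0.11 ± 0.12.

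The 2 transporter genes are related, and whether their estimates differ was not tested. As a description, the RefSeq bases before each gene's listed start are shown (build GRCr8, plus strand, 5′ to 3′, the 250 bases before the start at chr16:18312717-18312966 and chr3:33472653-33472902). Of the 9 genes, 5 had an entry in the promoter table. Capitals mark matches, on either strand, to AGGTCA (the nuclear receptor half-site), GGGCGG (the GC box), TATAAA (the TATA box), CCAAT (the CCAAT box) and AGGNCANAGGNCA (a direct repeat with 1 base between, of the kind that PPAR and RXR bind); no 2 matches overlap.
Slc27a1: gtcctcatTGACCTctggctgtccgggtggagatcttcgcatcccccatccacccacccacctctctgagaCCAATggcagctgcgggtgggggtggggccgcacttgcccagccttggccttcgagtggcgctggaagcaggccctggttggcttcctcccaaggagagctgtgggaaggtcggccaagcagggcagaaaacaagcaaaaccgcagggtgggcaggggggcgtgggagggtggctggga
Slc27a4: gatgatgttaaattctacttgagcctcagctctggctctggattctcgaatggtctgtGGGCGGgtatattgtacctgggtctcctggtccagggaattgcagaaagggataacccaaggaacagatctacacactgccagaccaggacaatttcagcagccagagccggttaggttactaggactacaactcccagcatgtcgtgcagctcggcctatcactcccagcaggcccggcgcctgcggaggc
In the Slc27a1 window a half-site lies on the reverse strand at -242 and a CCAAT box at -179 from the start; in the Slc27a4 window a GC box lies at -192. Of 33469 windows of this length in the table, 14.1% hold the half-site, 34% the CCAAT box, 30.5% the GC box, 12.9% TATAAA and 0.368% the direct repeat. The Slc27a1 start used by the table is 1108 bases inside the gene's outermost start, and that of Slc27a4 is its outermost one. The letters are a description of these windows only.

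Among the binding proteins, Fabp4, the carrier of fat cells and some macrophages and capillaries (chromosome 2, 93792601 to 93797305, plus strand), was the most abundant of the 9 genes per length. It had 285, 283 and 88.2 CPM in controls, 469, 435 and 344.5 in ovariectomized and 550.5, 333 and 592 CPM in treated libraries. All ovariectomized and treated libraries lay above all controls, and control replicate 3 stood far below the other controls. The log2 fold change was 0.93 ± 0.42 for ovariectomized against control (edgeR unadjusted p = 0.054, adjusted p = 0.974) and 1.17 ± 0.42 for treated against control (edgeR unadjusted p = 0.022, adjusted p = 0.512). Without control replicate 3 these became 0.55 ± 0.25 and 0.79 ± 0.25, with the groups still apart. Treated against ovariectomized, the value was 0.24 ± 0.41.

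Fabp5, a close relative of Fabp4 found in many tissues, lies 184.4 kb from it on chromosome 2 (93981656 to 93985378, minus strand). It had 22.3, 31.1 and 26.6 CPM in controls, 25.6, 26.3 and 25.4 in ovariectomized and 27.4, 22.1 and 25.3 CPM in treated libraries. The groups overlapped fully, with log2 fold changes of -0.05 ± 0.13 for ovariectomized and -0.10 ± 0.13 for treated against control libraries, and -0.04 ± 0.13 between treated and ovariectomized ones. The 95% intervals of these 3 differences stayed within -0.39 and 0.25.

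Fabp3, the carrier of heart and skeletal muscle (chromosome 5, 148528725 to 148535565, plus strand), was the most variable of the 9 genes. It had 1.22, 6.76 and 3.53 CPM in controls, 5.75, 9.92 and 31.3 in ovariectomized and 5.50, 2.97 and 7.51 CPM in treated libraries, from 73 to 2016 counts. Ovariectomized replicate 3 held more than 3 times the level of any other library, and the other 2 ovariectomized libraries were close to or inside the range of the rest. The log2 fold change was 2.03 ± 0.77 for ovariectomized against control (edgeR unadjusted p = 0.0285, adjusted p = 0.941) and -1.56 ± 0.76 for treated against ovariectomized (edgeR unadjusted p = 0.072, adjusted p = 0.929). Without ovariectomized replicate 3 they became 1.03 ± 0.67 and -0.56 ± 0.67, with unadjusted p-values of 0.164 and 0.431 in edgeR.

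Fabp3 moved with the muscle genes of the same libraries. Ckm, which encodes muscle creatine kinase, had 56.1, 119 and 164 CPM in controls, 167, 354 and 711 in ovariectomized and 168, 127 and 230.0 CPM in treated libraries. Fabp3 stood at 21.7, 56.6 and 21.5 per 1000 Ckm in controls, 34.3, 28.0 and 44.1 in ovariectomized and 32.8, 23.3 and 32.7 in treated libraries, so the groups overlapped on this ratio. With the mean log2 CPM of the muscle markers as a covariate, the Fabp3 estimate for ovariectomized against control was -0.30 ± 0.48 in place of 2.03, and that for treated against ovariectomized -0.07 ± 0.38 in place of -1.56. For Lpl in ovariectomized against control, the same covariate gave 1.62 ± 0.54. The covariate itself was 4.687 to 6.466 in control and 6.55 to 8.645 in ovariectomized libraries. How far it follows from the groups cannot be told apart here, and the part of muscle in these estimates was not tested. All 12 muscle markers had higher estimates in ovariectomized than in control libraries (all genes, 48.7% above 0). At an unadjusted p under 0.05 in edgeR stood 11 of them (all genes, 3.33% in this direction). All 12 had lower estimates in treated than in ovariectomized libraries, with a median of -1.218 (all genes, 49.0% above 0). They had higher estimates in treated than in control libraries, with a median of 0.631 (all genes, 50.0% above 0).

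Acsl1, the long-chain acyl-CoA synthetase of fat, heart and liver (chromosome 16, 48937456 to 49003246, minus strand), had 251, 282 and 165 CPM in controls, 455, 585 and 324 in ovariectomized and 468.5, 299.7 and 452 CPM in treated libraries. As with Lpl, every ovariectomized and treated library lay above every control. The log2 fold change was 0.97 ± 0.28 (1.95-fold) for ovariectomized against control and 0.81 ± 0.28 (1.75-fold) for treated against control. edgeR's unadjusted p-values were 0.00775 and 0.0187, with an adjusted p = 0.892 and an adjusted p = 0.496 from edgeR, and an adjusted p = 0.0725 and an adjusted p = 0.129 from DESeq2. Treated against ovariectomized, Acsl1 differed by -0.16 ± 0.28.

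**Figure D2:**
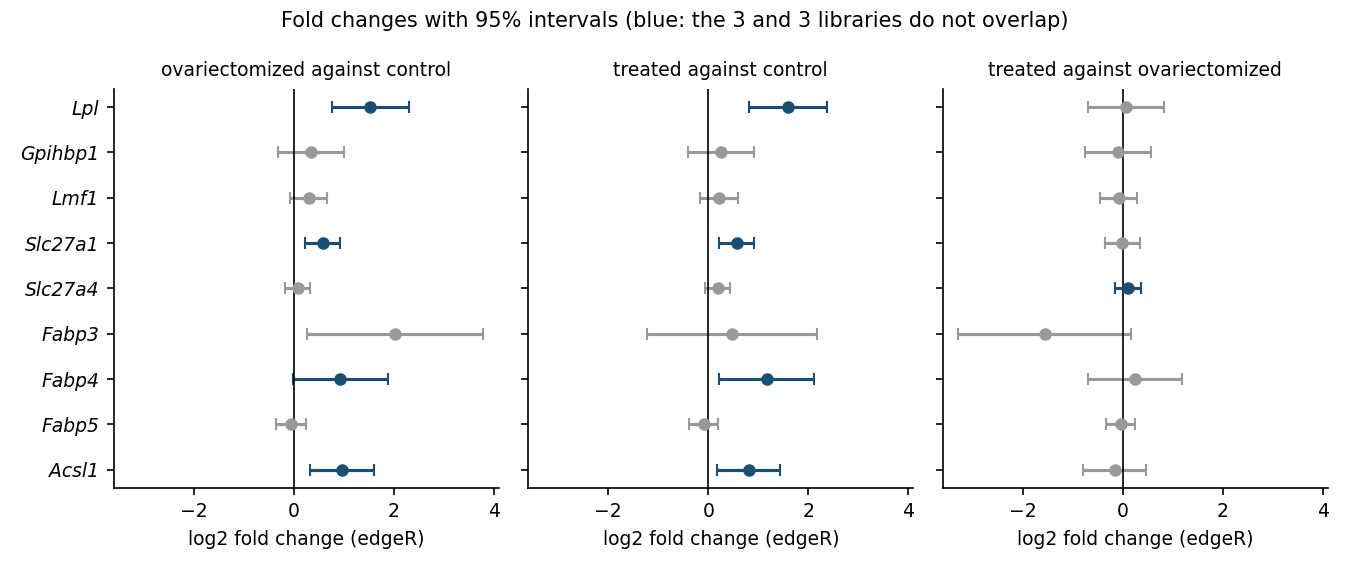
edgeR log2 fold changes of the 9 genes with 95% intervals in the 3 comparisons; blue points mark genes whose 3 and 3 libraries do not overlap, grey points the others. Lpl (1.53 and 1.59), Slc27a1, Fabp4 and Acsl1 are blue in both comparisons with controls, and in treated against ovariectomized the only blue point is Slc27a4, at 0.11.

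Counted together, 8 of the 9 genes had a log2 fold change above 0 for ovariectomized against control, where 48.7% of all tested genes did, and their median was 0.58 against -0.004 over all genes. The groups did not overlap for 4 of them (Lpl, Slc27a1, Fabp4 and Acsl1), as for 5.02% of all genes in this direction, and 4 had an unadjusted p under 0.05 with a higher level (Lpl, Slc27a1, Fabp3 and Acsl1), as 3.33% of all genes had. For treated against control, 8 of 9 were above 0, against 50.0% of all genes. In that comparison 4 did not overlap, against 6.34%, and 4 had an unadjusted p under 0.05 with a higher level (Lpl, Slc27a1, Fabp4 and Acsl1), against 4.05%. Their median was 0.474. These genes, and the lists below, were chosen with earlier results of these data known, so the shares are descriptions and not tests. The 2-sided exact permutation test gave p = 0.1 for each gene whose groups did not overlap, the smallest value that 3 libraries against 3 allow.

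For treated against ovariectomized, 3 of the 9 genes were above 0, against 49.0% of all genes, and the median was -0.044 against -0.004. None had an unadjusted p under 0.05 in edgeR, which 5.20% of all genes had in either direction. Only Slc27a4 had groups that did not overlap, higher in treated libraries as for 5.75% of all genes. The 95% intervals of Lpl, Fabp4 and Acsl1 reached from -0.70 to 0.82, from -0.70 to 1.18 and from -0.79 to 0.47 on the log2 scale, so both lower and higher levels lay within them.

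Per length, the order of levels was led by the same genes in each group. Mean FPKM in controls was 300.1 ± 149 for Fabp4, 53.4 ± 12.2 for Acsl1, 34.2 ± 5.35 for Fabp5, 27.5 ± 8.92 for Lpl and 20.9 ± 4.80 for Gpihbp1 (SD, n = 3). Below these came Slc27a4 at 12.4, Slc27a1 at 9.28, Lmf1 at 6.23 and Fabp3 at 4.63 FPKM. Ranges of neighbours overlapped between Fabp5, Lpl and Gpihbp1, between Slc27a4 and Slc27a1, and between Lmf1 and Fabp3.

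In ovariectomized libraries Lpl stood at 82.8 ± 18.9 FPKM, below Fabp4 at 596 ± 86.5 and Acsl1 at 108 ± 30.2, and above Fabp5 at 34.1 ± 0.445 without overlap. The range of Lpl overlapped that of Acsl1. Gpihbp1 followed at 27.5 FPKM, then Fabp3 at 19.8, Slc27a1 at 14.2, Slc27a4 at 13.5 and Lmf1 at 7.86 FPKM, and from Gpihbp1 to Slc27a4 each overlapped the next. In treated libraries the leading genes were again Fabp4 at 726 ± 207, Acsl1 at 99.7 ± 22.5 and Lpl at 88.8 ± 29.1 FPKM, and Fabp3 was last at 6.87 FPKM. Lpl and Fabp5 overlapped in controls and in neither of the other groups.

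Fat cell genes moved with Lpl, Fabp4 and Acsl1: all 10 adipocyte markers had higher estimates in ovariectomized than in control libraries (all genes, 48.7% above 0). Of the 10, 6 had an unadjusted p under 0.05 in edgeR (all genes, 3.33% in this direction). For treated against control all 10 were higher too (all genes, 50.0%), 6 of them at such a p (all genes, 4.05% in this direction). For treated against ovariectomized 4 were above 0 and 6 below (all genes, 49.0% above 0). Adipoq, which encodes adiponectin and marks fat cells, had 185, 157 and 36.8 CPM in controls, 350.0, 287 and 176 in ovariectomized and 348, 224 and 383 CPM in treated libraries. Fabp4 stood at 1.54, 1.80 and 2.39 per Adipoq in controls, 1.34, 1.52 and 1.96 in ovariectomized and 1.58, 1.48 and 1.54 in treated libraries, with overlapping groups. Lpl stood at 0.692, 0.867 and 1.78 per Adipoq in controls, 0.857, 1.40 and 1.44 in ovariectomized and 1.05, 0.939 and 1.09 in treated libraries. Control replicate 3, with the least Adipoq, had the highest ratio for both genes, and the groups overlapped.

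**Figure D3:**
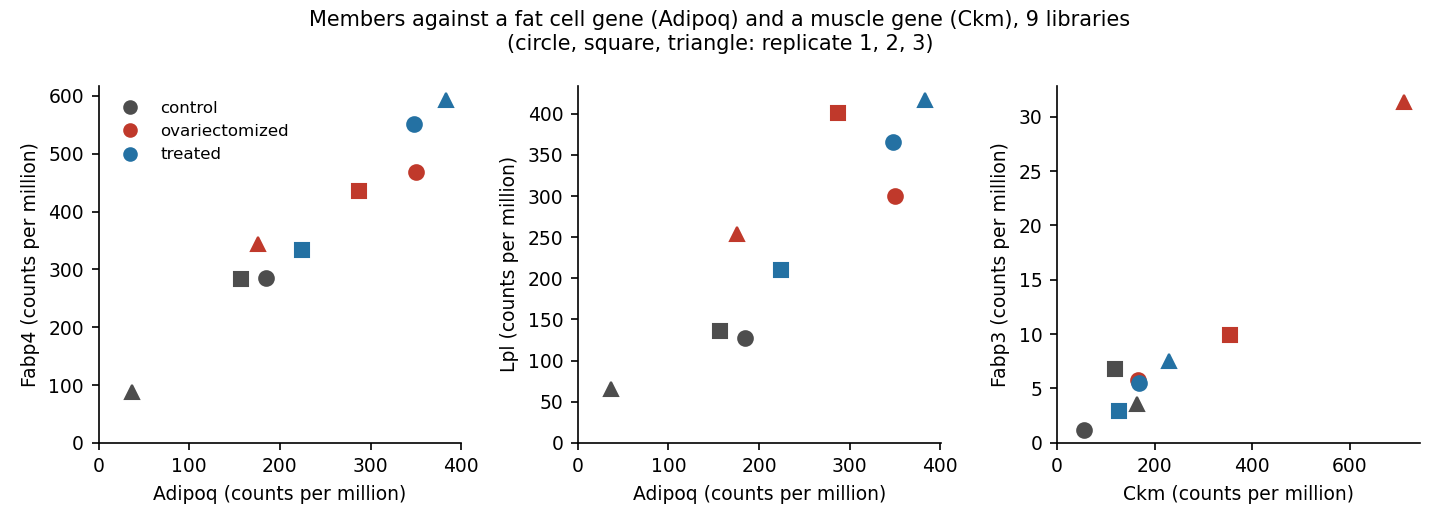
Fabp4 and Lpl against Adipoq, and Fabp3 against Ckm, in CPM on linear axes; each point is 1 library, coloured by group, with circles, squares and triangles for replicates 1, 2 and 3. Control replicate 3 has the lowest Adipoq (36.8 CPM) with the lowest Fabp4 and Lpl, and ovariectomized replicate 3 has the highest Ckm (711 CPM) with the highest Fabp3.

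With the mean log2 CPM of the adipocyte markers as a covariate in edgeR, a fit added after the data were seen, Fabp4 for ovariectomized against control went from 0.93 to -0.12 ± 0.12 and Acsl1 from 0.97 to 0.41 ± 0.29. Lpl went from 1.53 to 0.79 ± 0.28, with an unadjusted p of 0.025 and an adjusted p = 0.954 in edgeR, and Slc27a1 from 0.58 to 0.75 ± 0.22. For treated against control the same fit gave 0.19 ± 0.12 for Fabp4, 0.28 ± 0.28 for Acsl1, 0.87 ± 0.28 for Lpl and 0.73 ± 0.21 for Slc27a1. Between treated and ovariectomized libraries it gave 0.31 ± 0.09 for Fabp4 (edgeR unadjusted p = 0.00829, adjusted p = 0.815) and 0.08 ± 0.20 for Lpl, against 0.24 ± 0.41 and 0.06 ± 0.33 without the covariate. The covariate itself was 3.727 to 5.496 in control, 5.859 to 6.407 in ovariectomized and 5.516 to 6.321 in treated libraries. Controls thus overlapped neither other group on it. Its markers include Plin1 and Adipoq, which followed Fabp4 at r = 0.995 and 0.990, so this fit cannot separate Fabp4 from the marker level. How far the marker level itself follows from the groups cannot be told apart here, and what the remaining estimates mean was not tested.

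**Figure D4:**
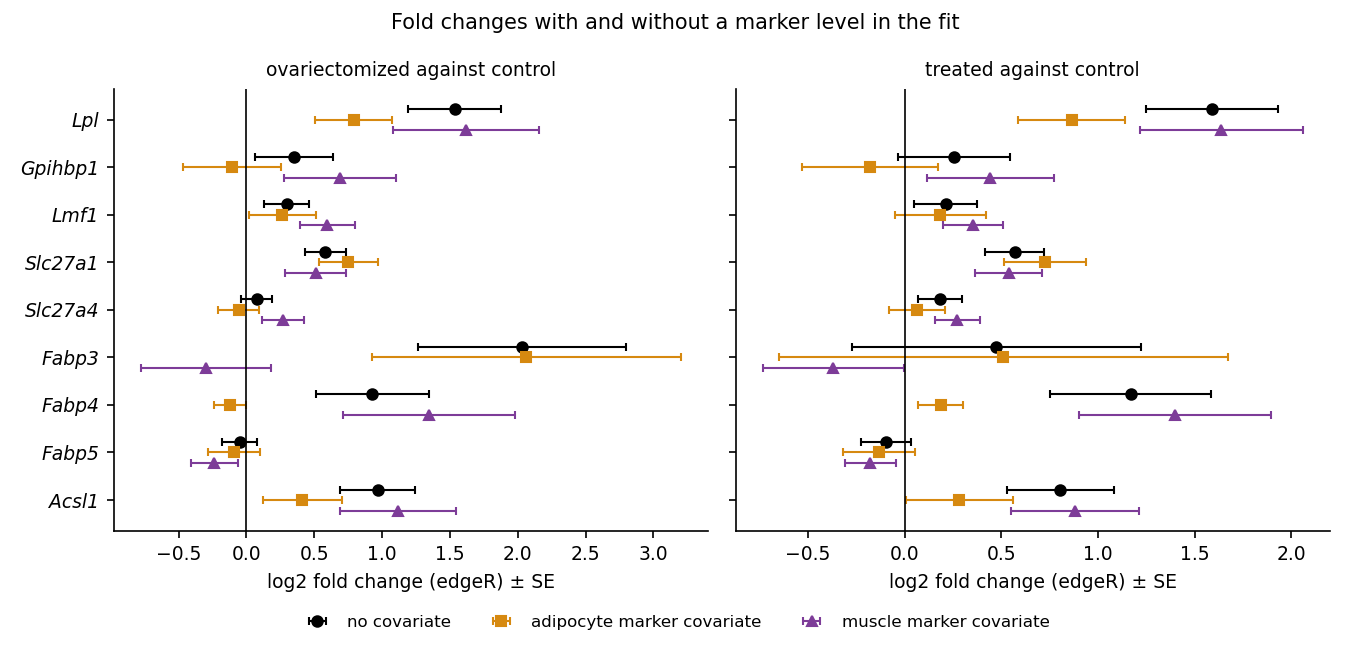
edgeR log2 fold changes ± SE of the 9 genes for ovariectomized and treated against control, without a covariate (black circles), with the adipocyte marker level (orange squares) and with the muscle marker level (purple triangles) in the fit. Fabp4 sits at 0.93 without and -0.12 with the adipocyte level, Fabp3 at 2.03 without and -0.30 with the muscle level, and Slc27a1 between 0.51 and 0.75 in all 3 fits of ovariectomized against control.

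The genes whose pattern was most like each member were found by the Pearson correlation of log2 CPM over the 9 libraries, among 11743 genes with a named symbol, as a description. For Lpl they were Hcar1, the lactate receptor of fat cells (r = 0.986), Fitm2, a lipid droplet formation gene (0.985), Kcnk3, a potassium channel (0.983), Cmbl (0.982) and Aldh6a1, a mitochondrial dehydrogenase of valine breakdown (0.981). Hcar1 had 2.22, 1.97 and 0.73 CPM in controls and 4.90, 5.67 and 4.42 CPM in ovariectomized libraries. For Fabp4 they were Plin1, the perilipin of fat droplets (0.995), Adipoq (0.990) and Bin2a (0.988), and for Acsl1 Adig (0.986), Gpd1, the glycerol phosphate dehydrogenase (0.979), and Zadh2 (0.974). For Fabp3 they were Usp13 (0.997) and the muscle structure genes Nrap (0.989) and Flnc (0.988), with Nrap at 3.21 CPM in control replicate 1 and 178 CPM in ovariectomized replicate 3. The 9 points of each correlation share groups and tissue makeup.

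Of 20 genes of lipase control and lipoprotein handling, 13 were tested, and 7 were above 0 and 6 below for ovariectomized against control (all genes, 48.7% above 0), with a median of 0.002. Angptl4 and Pcsk6 had an unadjusted p under 0.05, both higher (all genes, 3.33%), and edgeR and DESeq2 passed 0. Angptl4, a secreted inhibitor of lipoprotein lipase, had 20.5, 17.8 and 8.03 CPM in controls, 28.6, 24.4 and 26.4 in ovariectomized and 35.1, 24.9 and 34.8 CPM in treated libraries. All 6 ovariectomized and treated libraries lay above all controls, like those of the lipase it inhibits. Its log2 fold change was 0.78 ± 0.31 for ovariectomized against control (edgeR unadjusted p = 0.0338, adjusted p = 0.945) and 1.04 ± 0.31 for treated against control (edgeR unadjusted p = 0.00933, adjusted p = 0.476). Pcsk6, a convertase able to cleave lipase family members, was at 0.34 ± 0.14 and 0.40 ± 0.14, and Lipg, the endothelial lipase, at 0.75 ± 0.41 for ovariectomized against control with overlapping groups. Furin, at -0.14 ± 0.07 for treated against control, had overlapping groups too. For treated against control 8 of the 13 were above 0 (all genes, 50.0%), with a median of 0.093. For treated against ovariectomized 7 were above 0 (all genes, 49.0%), none at an unadjusted p under 0.05, and the smallest p-values belonged to Furin (-0.13 ± 0.07), Sel1l (0.16 ± 0.10) and Lipg (-0.61 ± 0.41).

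Of 20 other genes of fatty acid transport, binding and activation, 10 were tested, with 5 above and 5 below 0 for ovariectomized against control (all genes, 48.7% above 0) and a median of 0.03. At an unadjusted p under 0.05 stood 3 higher genes (Cav1, Got2 and Dbi, against 3.33% of all genes) and 1 lower (Acsl4). Of all tested genes, 701 had such a p in either direction, 462 of them higher. Of the 10, edgeR and DESeq2 passed 0. Cav1, the caveolin of fat cell and endothelial membranes, had 23.0, 30.7 and 21.1 CPM in controls, 40.8, 41.9 and 51.2 in ovariectomized and 33.2, 24.6 and 42.0 CPM in treated libraries. Its ovariectomized libraries stood above all controls and its treated libraries overlapped both groups. The log2 fold change was 0.84 ± 0.21 for ovariectomized against control (edgeR unadjusted p = 0.0039, adjusted p = 0.892; DESeq2 adjusted p = 0.0506) and -0.43 ± 0.21 for treated against ovariectomized. Got2, the aminotransferase that is also a membrane fatty acid binding protein, was at 0.22 ± 0.07 and -0.16 ± 0.07 in these comparisons. Its groups did not overlap in the first, as for 5.02% of all genes in this direction. For Got2 edgeR gave an adjusted p = 0.892 and an adjusted p = 0.929. Dbi, the acyl-CoA binding protein, was at 0.29 ± 0.12 for ovariectomized and 0.30 ± 0.12 for treated against control.

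Of the other acyl-CoA synthetases, Acsl4, which prefers arachidonate, had 45.8, 47.5 and 48.1 CPM in controls and 42.9, 41.9 and 40.1 CPM in ovariectomized libraries. Its log2 fold change was -0.18 ± 0.08 (edgeR adjusted p = 0.974). Acsl5 was at -0.14 ± 0.08 for ovariectomized against control and 0.16 ± 0.08 for treated against ovariectomized. In the latter its libraries did not overlap, as for 5.75% of all genes in this direction (edgeR adjusted p = 0.929). Slc27a3, a further transporter family member, was at 0.27 ± 0.15 for treated against control. For treated against control 7 of the 10 genes were above 0 (all genes, 50.0%) with a median of 0.057, and for treated against ovariectomized 7 (all genes, 49.0%) with a median of 0.093. Dbi had an unadjusted p under 0.05 in edgeR in the first, higher as for 4.05% of all genes. Got2 had such a p in the second, lower, as 5.20% of all genes had in either direction. The genes Fabp1 and Fabp2 were listed at 0 in all 9 libraries.

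Of 14 regulators, 11 were tested, and 10 were above 0 for ovariectomized against control, where 48.7% of all genes were, with a median of 0.209 against -0.004. An unadjusted p under 0.05 was found for 4 higher genes (Pparg, Klf15, Esrra and Srebf1), as for 3.33% of all genes, and 1 lower (Cebpb). Of all tested genes, 701 had such a p in either direction, 462 of them higher. Of the 11 regulators, edgeR and DESeq2 passed 0. Pparg, the nuclear receptor that drives fat cell genes including Lpl and Fabp4, had 22.7, 22.6 and 17.7 CPM in controls, 38.2, 37.3 and 25.9 in ovariectomized and 33.0, 25.7 and 38.6 CPM in treated libraries. Its control libraries lay below all others, with a log2 fold change of 0.69 ± 0.20 for ovariectomized against control (edgeR unadjusted p = 0.00771, adjusted p = 0.892) and 0.63 ± 0.20 for treated against control (edgeR unadjusted p = 0.0122, adjusted p = 0.485). Klf15, a factor of fat and muscle metabolism, was at 0.75 ± 0.21 for ovariectomized against control, without overlap, and at -0.60 ± 0.21 for treated against ovariectomized. For these, edgeR gave an adjusted p = 0.892 and an adjusted p = 0.929, and DESeq2 an adjusted p = 0.115 and an adjusted p = 0.475. Higher without overlap in the first comparison were 5.02% of all genes. Its treated libraries, at 4.58, 4.46 and 5.68 CPM, were near the controls at 4.86, 3.68 and 4.73 CPM.

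Esrra, the oestrogen-related receptor of mitochondrial genes, was at 0.28 ± 0.08 for ovariectomized against control and 0.34 ± 0.08 for treated against control, where DESeq2 gave an adjusted p = 0.0335 and edgeR an adjusted p = 0.469. It was the regulator that DESeq2 passed in the latter comparison. Cebpa, a partner of Pparg, was at 0.51 ± 0.19 for treated against control (edgeR adjusted p = 0.516). Its libraries did not overlap, as for 6.34% of all genes in this direction. For treated against control 8 of the 11 regulators were above 0 (all genes, 50.0%) with a median of 0.15, and for treated against ovariectomized 5 (all genes, 49.0%), with a median of -0.035. In the last comparison Ppargc1b, a coactivator of mitochondrial genes, was at -0.41 ± 0.19 (edgeR adjusted p = 0.929). Rxrb was at -0.25 ± 0.16 there with overlap.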

How the data were processed

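Per the file headers, the authors deposited a whole-number count and an FPKM value for each gene in 1 table of the 9 femoral libraries, with Ensembl identifiers, symbols and coordinates. fastp, HISAT2 and StringTie are named in the submitters' processing notes, without versions; neither the genome build nor the making of the counts is stated in those sources. A fill value of 0.0001 FPKM stands at each deposited count of 0. Counts were taken as unscaled reads. The labels do not state that libraries came from separate animals, so p-values reflect only spread among these samples, which may be technical.

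The 13886 genes averaging 1 FPKM or more entered 1 edgeR 4.0.16 quasi-likelihood fit over 3 groups, with TMM factors and Benjamini-Hochberg adjustment over all of them. The common biological coefficient of variation was 0.262, and intervals used 6 residual and 2.37 prior degrees of freedom. Members had 73 or more counts per library, and their spread differed from this common value. In ovariectomized libraries the SD was 1.5% of the mean CPM for Slc27a4 and 87.6% for Fabp3. DESeq2 1.42.0, limma 3.58.1 on log2(FPKM + 1), filters, scaling, covariates, a replicate block and left-out libraries were alternatives. The fitting step was tested on simulated data.

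Members and lists were chosen with earlier results of these data known. Named were all members, from each pathway list the 3 genes with the smallest p per comparison and always Angptl4, Pparg, Acsl4 and Acsl5, and the 5 (Lpl) or 3 (Fabp3, Fabp4, Acsl1) genes most like a member. Adipoq, Ckm and Cdh5 are defining markers. R 4.3.3, Python 3.11.15 and matplotlib 3.10.9 were used.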

Additional observations from a re-analysis of the deposited data

How the results depend on the processing

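Of 180 estimates of the 9 genes under 20 alternatives for each comparison, 171 kept direction and side of the threshold for ovariectomized against control, 160 between treated and ovariectomized and 175 for treated against control. DESeq2 put 59, 35 and 153 genes past the threshold where edgeR had 0, and Lpl among the 9; fits of only the 2 groups compared had 2, 1 and 1, and those without both control 3 and ovariectomized 3 had 1 for each comparison with ovariectomized libraries. Leaving out 1 library gave 0 to 4 genes for ovariectomized and 0 to 3 for treated against control, and 0 to 2 between treated and ovariectomized libraries. In such fits an arm of 2 libraries shares the pooled spread.

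The members' median for treated against control was 0.655 in limma on log2(FPKM + 0.1), where the median of all genes shifted to 0.088, and 0.284 to 0.654 without 1 library, lowest without treated replicate 3. With the adipocyte covariate it was 0.187, and 0.264 for ovariectomized against control. For treated against ovariectomized it was 0.006 with the muscle covariate and -0.118 to 0.074 without 1 library.

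Signs changed in limma for Fabp5 (0.007 and 0.008, ovariectomized against control) and Slc27a1 (0.026 and 0.028, treated against ovariectomized); with the muscle covariate for Fabp3 (-0.299 from 2.03 and -0.369 from 0.474, ovariectomized and treated against control), Slc27a1 (0.027) and Fabp5 (0.061); with the adipocyte covariate for Gpihbp1 (-0.107 and -0.179), Fabp4 (-0.120 from 0.929) and Slc27a4 (-0.056); without both libraries for Lpl (-0.082) and Slc27a1 (0.019), treated against ovariectomized. Without 1 library, treated against ovariectomized ran from -0.143 to 0.297 for Lpl, -0.355 to 0.070 for Acsl1, -0.438 to 0.088 for Gpihbp1, -0.186 to 0.024 for Lmf1, -0.118 to 0.074 for Slc27a1 and -0.118 to 0.035 for Fabp5. Fabp5 ran from -0.167 to 0.066 and -0.205 to 0.030 in the comparisons with controls, Slc27a4 from -0.009 to 0.217 for ovariectomized and Gpihbp1 from -0.086 to 0.472 for treated against control. The cause was not tested.

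In deviations from their group means, same-numbered libraries correlated at 0.184, 0.092 and 0.08 for ovariectomized against control and from -0.132 to 0.031 otherwise. Differently numbered libraries were not compared, so whether same-numbered ones share more than a number was not tested. With the replicate block, edgeR had 0 genes past the threshold in each comparison and Lpl at 1.55 and 1.65 against controls; no call changed.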
